A study of Mus musculus with 6 samples.

Results

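The cytotoxic granule genes were taken as the 10 symbols Gzma, Gzmb, Gzmc, Gzmk, Gzmm, Prf1, Nkg7, Srgn, Eomes and Tbx21, and every non-control spot of the arrays whose gene name was one of them was used. This gave 13 of 55681 distinct probes, 2 each for Gzmk, Nkg7 and Eomes and 1 for each of the other genes. Messenger RNA of mouse spleen had been measured on 6 single-colour arrays. For 3 of them the mice had been exposed over the whole body to X-rays at 900 cGy, 24 h before the spleens were taken, and for the other 3 resting mice had received 0 cGy. Both groups were of 1 strain, B10.BALB-16.C2A, named congenic in the series title, and every array held a pool of spleen RNA from 3 mice. No age or sex was given in the sources used here. The comparison asks how the RNA of these genes differed in the spleen 24 h after 900 cGy. In RNA of a whole spleen, fewer cells of a type and less RNA per cell cannot be told apart, so a change below is a change in the share of the spleen's RNA.

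Natural killer (NK) cells and CD8 T cells kill target cells by releasing the contents of secretory granules. Perforin opens the membrane of the target, and granzymes, a family of serine proteases, enter it and cut proteins inside. The granzymes are held in the granule by the proteoglycan serglycin, and the T-box transcription factors Eomes and T-bet, the product of Tbx21, drive the expression of granzyme and perforin genes in both cell types.

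The spleens had the markers of their tissue, since all 8 B cell marker genes were well above background on every array. All 8 were lower on the irradiated arrays, with a median log2 change of -2.82. Exocrine pancreas genes differed between the arrays as well. The sum of 22 of them, in multiples of the array's 75th percentile signal, lay between 3.19 and 278 on the unirradiated and between 2136 and 2775 on the irradiated arrays. Signals of 39036 to 41267 probes stood well above background per array, with saturation at no spot. Of 26642 genes tested by their brightest probe, 58.6% passed an adjusted p of 0.05 (limma, n = 3 pools per group), 28% as higher and 30.6% as lower, with a median log2 change of -0.06. Scaling instead on RNA spiked into each labelling, called spike-in scaling below, moved that median to -0.34 and the share of higher genes among those called from 47.8% to 30.7%. The number of arrays limits the precision, and every p-value rests on how pools, rather than single mice, varied.

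The sequences of the probes show which stretch of each transcript was read, and this matters for the genes with 2 probes. A window of 30 of the 60 bases of each such Gzmk and Eomes probe is given 5′ to 3′, together with those of Gzmb and Gzmm, the genes with the largest changes. Capitals mark AATAAA, the usual signal for cutting and polyadenylating an mRNA, which was found in 4 of the 13 probes and in 10.1% of all probes.
Gzmb, A_51_P333274: ccccgagaatgttatctaatgctagtcatc
Gzmm, A_55_P2150757: cctctgaggaccAATAAAtcctgatatatc
Gzmk, A_66_P140238: gctctggtttccctggtggctggcgtttat
Gzmk, A_55_P2042331: cgttcatcctaAATAAAatgtggacgtctg
Eomes, A_55_P2150717: gctatgaagaacgagtgcccggtgctatta
Eomes, A_55_P2184434: taagtcatttttAATAAAtgtggttcaata
For Gzmk and Eomes, 1 probe of the 2 holds AATAAA and the other does not. Whether transcripts end after it was not checked. No run of more than 9 identical bases was shared by any 2 of the 13 full probe sequences.

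The promoters of the member that rose most and of the one that fell most are shown, since binding motifs of T-box, RUNX and other factors can be read in them. They cover 250 bases upstream of the start site, 5′ to 3′ along the gene, from RefSeq on GRCm38.p6. Gzmb is at chr14:56262335-56262584 (minus strand) and the first of 2 start sites of Gzmm at chr10:79688770-79689019 (plus strand). Capitals mark the motifs found.
Gzmb: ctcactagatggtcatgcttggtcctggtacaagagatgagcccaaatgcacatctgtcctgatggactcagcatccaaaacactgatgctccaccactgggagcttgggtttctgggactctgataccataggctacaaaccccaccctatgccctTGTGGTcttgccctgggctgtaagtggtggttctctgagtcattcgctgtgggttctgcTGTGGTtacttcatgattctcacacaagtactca
Gzmm: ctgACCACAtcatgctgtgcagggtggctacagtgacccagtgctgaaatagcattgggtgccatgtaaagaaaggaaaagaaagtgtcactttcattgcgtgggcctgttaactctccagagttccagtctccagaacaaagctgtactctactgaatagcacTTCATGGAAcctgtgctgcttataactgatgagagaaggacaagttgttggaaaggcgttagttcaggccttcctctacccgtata
The motifs searched on both strands were TGTGGT for RUNX factors, TCACACC for T-box factors, TTCNNNGAA for STAT5 and, for interferon response elements, GAAA repeated after any 2 bases. The end of the T-box motif can overlap the start of the reversed RUNX motif, but no 2 different matches overlapped in the members. All 10 genes had an entry, 12 start sites in all. The RUNX motif was in 7 of the 12 and in 14% of 32851 promoter windows of this length. The Gzmb promoter held it 2 times, beginning at positions -93 and -34 from the start site, and that of Gzmm held it at -247, with a STAT5 motif at -86. The T-box motif was in 3 of the 12, those of Nkg7, Gzmk and the second Gzmm site, and in 3.33% of all windows. The STAT5 motif was in 2 and the interferon response motif in 3 of the 12, beside 7.02% and 2.98% of all.

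The granzymes went in different directions. Gzmb, Gzma and Gzmc were higher after irradiation, Gzmm was lower, and Gzmk depended on the probe. Perforin, Nkg7 and serglycin did not pass by their brightest probes, and both transcription factors were lower. Over all 13 probes 3 were higher, 6 lower and 4 did not pass, and 11 did not overlap between groups, beside 26.4% higher, 31% lower, 57.5% called in all and 65.7% without overlap among the 39683 probes tested. Taking each gene by its brightest probe, 3 of 10 were higher, 3 were lower and 4 did not pass, beside 28% higher and 30.6% lower among all genes tested. All 10 passed the filter on low signals in both groups. The median log2 change of the 10 was -0.14, beside -0.06 for all genes. The values of the 3 arrays of a group did not overlap those of the other group for 8 of the 10, beside 67.3% of all genes. The share of called members is thus close to that of all genes.

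**Figure D1:**
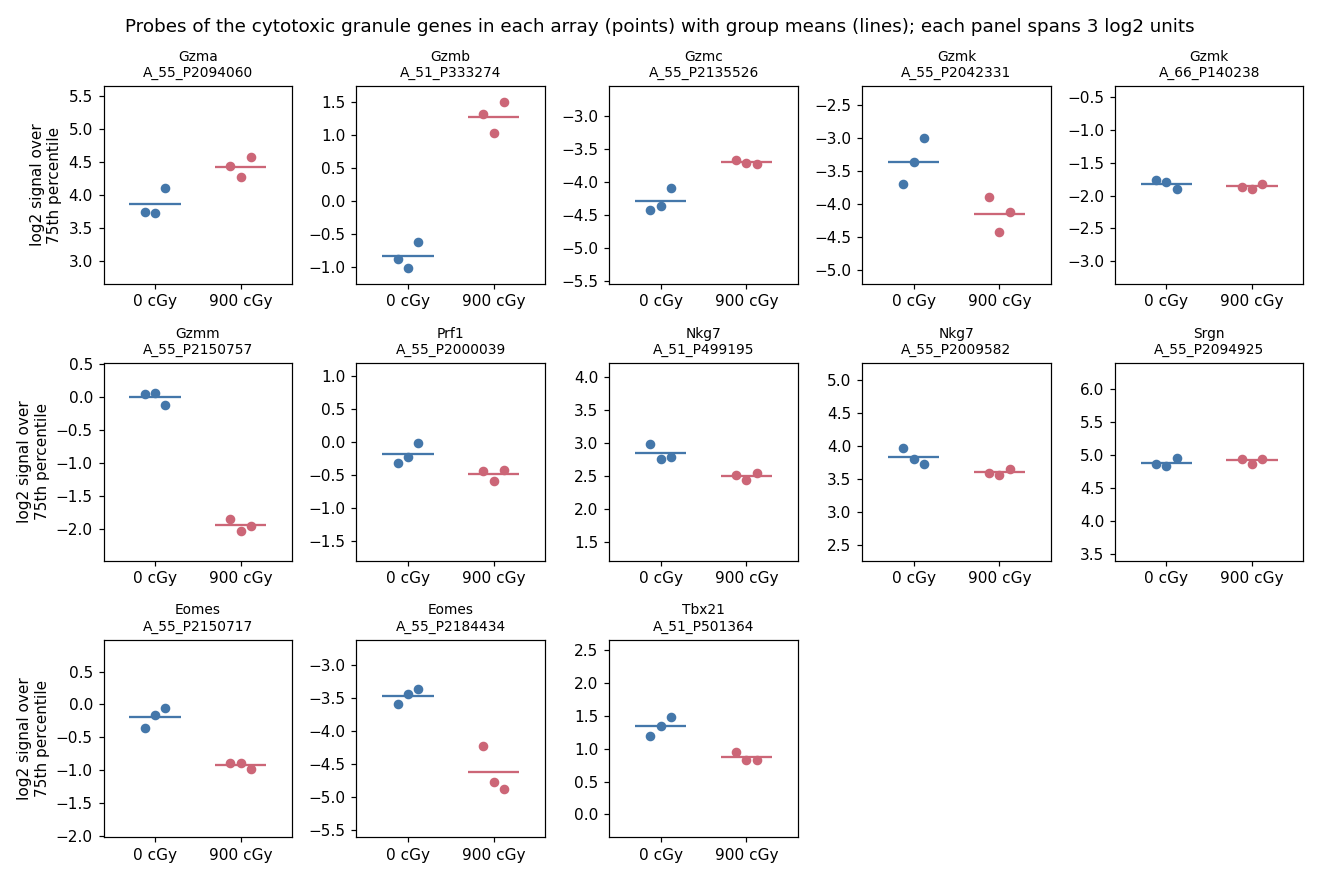
Log2 signal over the array's 75th percentile (vertical axis) of each of the 13 probes in the 3 unirradiated and 3 irradiated arrays; points are arrays, each a pool of 3 mice, and lines are group means. Every panel spans 3 log2 units, so slopes can be compared between panels but levels cannot; Gzmb rises by 2.12, Gzmm falls by 1.95, and Srgn and the brighter Gzmk probe overlap between groups.

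Gzmb encodes granzyme B, which cuts after aspartate and starts apoptosis by cleaving caspases and Bid. Its log2 signal was -0.88, -1.01 and -0.62 on unirradiated replicates 1 to 3 and 1.32, 1.03 and 1.50 on irradiated replicates 1 to 3. The groups lay far apart, with the lowest irradiated array above the highest unirradiated array by more than the range of either group. The gene rose 4.34-fold, a log2 change of 2.12 ± 0.16 (SE; limma adjusted p = 0.000132, n = 3 pools per group; higher in 3 of 3 irradiated pools). Before scaling, the deposited intensity of the probe ran from 572 to 914 without and from 2271 to 3339 with irradiation. In mm9 the probe covers 56877916 to 56877975 of chromosome 14, minus strand. Over 20 alternative settings the log2 change stayed between 1.83 and 2.24 and passed in each, 1.83 being the value with spike-in scaling.

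Gzma, which encodes the trypsin-like granzyme A, stood at 3.74, 3.73 and 4.11 without and at 4.44, 4.27 and 4.58 with irradiation. All irradiated arrays were above all unirradiated ones, the third unirradiated pool being the nearest. The 1.48-fold rise (log2 change 0.57 ± 0.14 SE) passed with the 75th percentile scaling at limma adjusted p = 0.0139. It did not pass with spike-in scaling, at 0.28 and adjusted p = 0.276, nor without unirradiated replicate 2 (adjusted p = 0.0507) or irradiated replicate 3 (adjusted p = 0.0525). Gzmc, a granzyme gene of the chromosome 14 cluster that also holds Gzmb, was dim. Its values were -4.43, -4.37 and -4.09 without and -3.67, -3.71 and -3.73 with irradiation, and the groups did not overlap. It rose 1.51-fold (log2 change 0.59 ± 0.11 SE; limma adjusted p = 0.00444), but spike-in scaling gave 0.31, which missed the threshold (adjusted p = 0.205). With normexp, a model-based background correction run here with 50 added to every signal, the change was 0.30. The added 50 alone shrinks log2 changes of dim probes. The probes of Gzma and Gzmc are at 113884035 to 113884094 of chromosome 13 and 56850307 to 56850366 of chromosome 14 in mm9.

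Gzmm encodes granzyme M, a protease that prefers methionine and is known from NK cells. Its values were 0.05, 0.06 and -0.11 on the unirradiated arrays and -1.85, -2.03 and -1.96 on the irradiated ones. The 3 arrays of each group lay within 0.18 of each other, and the groups were far apart. The gene fell 3.85-fold, a log2 change of -1.95 ± 0.10 (SE; limma adjusted p = 6.67e-05; lower in 3 of 3 irradiated pools). It passed under all 20 alternatives, with log2 changes from -2.23 to -1.71. In mm9 the probe covers 79157946 to 79158005 of chromosome 10, plus strand.

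Gzmk, a trypsin-like granzyme, was read by 2 probes that differed. The brighter, A_66_P140238, starts at base 18 of the transcript NM_008196, and its 60 bases cover 314 bases of the genome, so it spans a gap between 2 aligned blocks. It gave -1.77, -1.79 and -1.91 without and -1.86, -1.90 and -1.82 with irradiation, so the groups overlapped. The log2 change was -0.04, with a 95% interval from -0.24 to 0.16, and the limma adjusted p was 0.712. The dimmer, A_55_P2042331, belongs to another transcript record, ENSMUST00000122399, and holds the AATAAA motif printed above. It gave -3.70, -3.36 and -3.00 without and -3.89, -4.42 and -4.13 with irradiation, and the groups did not overlap. By this probe Gzmk was lower by 1.73-fold (log2 change -0.79 ± 0.21 SE; limma adjusted p = 0.0187). With normexp the change was -0.41. The call was lost without unirradiated replicate 2 (adjusted p = 0.0533) or irradiated replicate 2 (adjusted p = 0.0594), with slide row as a block (-0.54, adjusted p = 0.186) and with the pancreas genes as a covariate. The change by the dimmer probe minus that by the brighter was -0.75 (two-sided exact permutation p = 0.1, and no smaller value can be reached with 3 arrays a side). The probes lie on chromosome 13 of mm9, at 113970774 to 113971087 and 113961816 to 113961875.

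Prf1, the gene of the pore protein perforin, stood at -0.31, -0.23 and -0.01 without and at -0.44, -0.58 and -0.42 with irradiation. The irradiated pools were all below the unirradiated ones, though by little. The log2 change of -0.30 ± 0.11 (SE) did not pass (limma adjusted p = 0.0574). Its 95% interval, which is not adjusted for the number of probes, ran from -0.56 to -0.03. It passed as lower under 5 of 20 alternatives, among them spike-in scaling, at -0.58, and leaving out unirradiated replicate 1, at -0.36 (adjusted p = 0.0418).

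Nkg7, a membrane protein of cytotoxic granules, was lower by one of its probes. The brighter probe gave 3.96, 3.80 and 3.73 without and 3.58, 3.56 and 3.66 with irradiation, and the dimmer gave 2.99, 2.76 and 2.79 against 2.51, 2.45 and 2.55. Neither probe overlapped between groups. The changes were -0.23 ± 0.10 (SE; limma adjusted p = 0.081) and -0.34 ± 0.10 (SE; limma adjusted p = 0.0227). The second call was lost without any 1 of the irradiated arrays (adjusted p between 0.0576 and 0.0873), and the first probe passed without unirradiated replicate 3 (adjusted p = 0.0393). With spike-in scaling both passed, at -0.52 and -0.63.

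Srgn encodes serglycin, the proteoglycan core that is also made by many other blood cells. Its values were 4.87, 4.84 and 4.96 without and 4.94, 4.87 and 4.95 with irradiation, and the groups overlapped. The log2 change was 0.03 with a 95% interval from -0.17 to 0.23 (limma adjusted p = 0.769), and spike-in scaling turned it to -0.26 (adjusted p = 0.282). The interval does not reach the changes of Gzmb or Gzmm.

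Eomes and Tbx21, the T-box factors, were both lower. The brighter Eomes probe gave -0.36, -0.16 and -0.05 without and -0.88, -0.89 and -0.98 with irradiation, and the dimmer gave -3.60, -3.45 and -3.36 against -4.23, -4.78 and -4.88. The groups did not overlap for either probe. The log2 changes were -0.73 ± 0.11 (SE; limma adjusted p = 0.0015) and -1.16 ± 0.18 (SE; limma adjusted p = 0.00201). The dimmer probe starts at base 3653 of its transcript record and the brighter at base 2889, and the change of the dimmer minus that of the brighter was -0.44 (two-sided exact permutation p = 0.1, the lowest possible). With normexp the dimmer Eomes probe stood at -0.58 and the brighter at -0.71, so this difference turned to 0.12. Adding 50 to every signal shrinks the change of a dimmer probe more, but its part and that of the background correction were not told apart. Tbx21 gave 1.19, 1.34 and 1.48 without and 0.95, 0.83 and 0.82 with irradiation, again without overlap. It was 1.38-fold lower (log2 change -0.47 ± 0.11 SE; limma adjusted p = 0.00924).

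**Figure D2:**
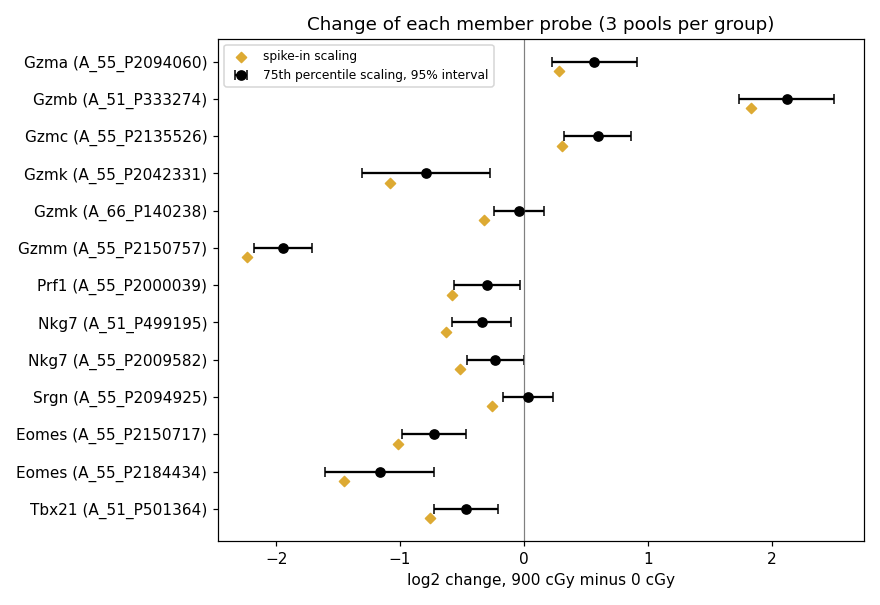
Log2 change, 900 cGy minus 0 cGy (horizontal axis), of the 13 probes; circles are 75th percentile scaling with the 95% interval of the limma fit, not adjusted for the number of probes, and diamonds are spike-in scaling. All diamonds lie left of their circles; Gzmb stays at 1.83 and Gzmm at -2.23, while Srgn changes side, from 0.03 to -0.26.

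The change of Gzmb was compared with that of each other member within arrays. Gzmb had the largest rise of the members, so differences above 0 follow from choosing it. The log2 difference between Gzmb and another member, each by its brightest probe, was taken on each array and compared between groups, for 9 pairs. The dimmer probes of Gzmk, Nkg7 and Eomes fell further, by log2 changes of -0.79, -0.34 and -1.16, and were not used here. The change of Gzmb exceeded that of Gzmm by 4.06, of Eomes by 2.85, of Tbx21 by 2.59, of Prf1 by 2.42, of Nkg7 by 2.35, of Gzmk by 2.16 and of Srgn by 2.09. It exceeded that of Gzma by 1.55 and of Gzmc by 1.52. For each of the 9 pairs the irradiated arrays lay wholly above the unirradiated ones, and the two-sided exact permutation p was 0.1, also after adjustment over the 9, which is the smallest that this design allows and cannot pass 0.05. All 9 pairs share the Gzmb probe, so they are not independent. Scaling cancels in these differences.

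Other genes of the granule pathway were counted from lists chosen with earlier results of these data known. Beside these counts, 28% of all genes tested were higher and 30.6% lower, or 4751 and 10749 of 26642 with spike-in scaling. Of 12 other granzymes, granule proteases and proteases of the chymase locus next to Gzmb, 6 were measured above background, none was higher, 3 were lower and 3 did not pass. Of the 12, 3 are also mast cell or basophil markers. Gzmd, Gzme, Gzmf, Gzmg and Gzmn, the remaining granzymes of the chromosome 14 cluster, were below the background limit throughout. The 3 that fell were Mcpt8, a basophil protease (log2 change -3.34), Ctsg, a neutrophil protease (-1.36), and Ctsw, cathepsin W of cytotoxic lymphocytes (-0.51). Of 20 genes of granule maturation and exocytosis, 9 rose, 4 fell and 7 missed the threshold. Their median was 0.20, and spike-in scaling gave -0.09, with 5 higher and 5 lower. Ctsc, the protease that activates granzymes by removing their propeptide, rose 2.97-fold (log2 change 1.57 ± 0.12 SE; limma adjusted p = 0.000147), and the lysosomal membrane genes Cd63 and Lamp2 rose by 1.48 and 1.33. Macrophages also express these 3 genes. All 12 macrophage markers rose, and of 10 plasma cell markers 8 rose and 1 fell. Which cells the rises of these 3 genes came from was not tested. The 4 that fell, named after their values were seen, were Unc13d, Rab27a, Sytl2 and Hps1, at -0.76, -0.34, -0.97 and -0.37. Unc13d and Rab27a prime and dock granules at the membrane for release.

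Among 12 measured granzyme inhibitors and intracellular targets, 6 rose, 4 fell and 2 did not pass, beside 28% higher and 30.6% lower of all genes. Serpinb6a, an intracellular serpin, rose by a log2 change of 1.76 and Serpina3g, a further serpin, by 1.31. Serpinb9, the inhibitor of granzyme B, named after its value was seen, stood at 0.75 ± 0.13 without and 1.94 ± 0.06 with irradiation (SD, n = 3 pools in either group). This 2.28-fold rise passed (limma adjusted p = 0.000168). Parp1, a DNA repair enzyme that apoptotic proteases cut, fell by a log2 change of -1.62. All 11 death ligands and effector cytokines passed, 8 as higher and 3 as lower, or 5 and 3 with spike-in scaling. Of all genes tested, 58.6% passed without spike-in scaling. Ccl3 and Ccl4, chemokines of activated lymphocytes and macrophages, rose by 1.50 and 1.30, and Csf2 by 1.41. The Csf2 probe was dimmer than that of Gzmc, at mean log2 signals of -5.53 without and -4.12 with irradiation. The 3 that fell, Ltb, Tnf and Lta, named after their values were seen, lie in 1 gene cluster and fell by log2 changes of -1.05, -1.01 and -0.77.

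**Figure D3:**
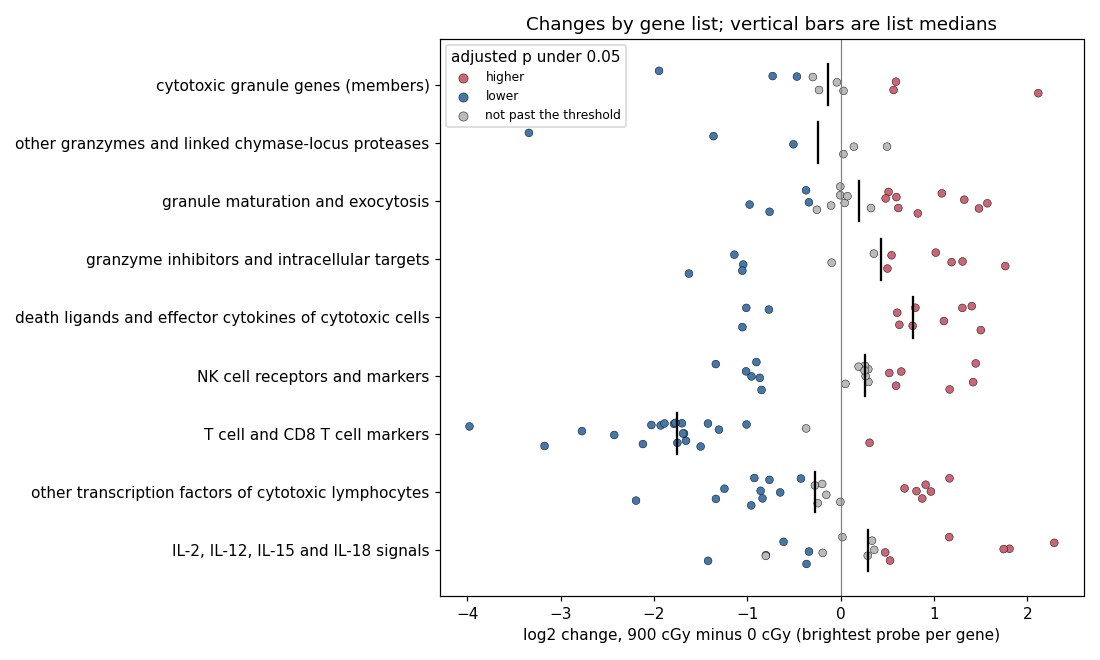
Log2 change, 900 cGy minus 0 cGy (horizontal axis), of each measured gene by its brightest probe, in rows by gene list; red is higher, blue is lower and grey did not pass, and black bars are list medians. The T cell list lies left of 0 apart from Cd4, at a median of -1.75, while the NK list is spread on both sides of 0, at a median of 0.26.

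Markers of the cells that carry these granules were counted next. Of 19 measured NK cell receptors and markers 6 rose, 6 fell and 7 missed the threshold, shares near the 28% higher and 30.6% lower of all genes. Their median was 0.26, and spike-in scaling gave -0.03, with 3 higher and 6 lower. Fcgr3 and Sh2d1b1 rose by 1.45 and 1.42, the former an IgG receptor also of macrophages. Klrd1, the CD94 receptor chain, fell 2.53-fold (log2 change -1.34 ± 0.18 SE; limma adjusted p = 0.000995). Ncr1, the NKp46 receptor that defines NK cells and is named after its value was seen, rose by 0.65 (limma adjusted p = 0.0115). With spike-in scaling it stood at 0.36 (adjusted p = 0.174). Of 21 T cell markers 19 fell, 1 rose and 1 did not pass, at a median of -1.75. The CD8 chains Cd8b1 and Cd8a were 15.7- and 6.82-fold lower and Lef1, a factor of naive T cells, 9.01-fold lower. Cd4, named after its value was seen, was the gene that rose, at 0.31, where spike-in scaling gave 0.02 (adjusted p = 0.926). No T cell marker was called higher with spike-in or median scaling or with normexp.

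Of 21 other transcription factors of cytotoxic lymphocytes 6 rose, 10 fell and 5 missed the threshold, at a median of -0.28. Beside this list and the next, 28% of all genes were higher and 30.6% lower. Spike-in scaling gave 5 higher and 12 lower. Bcl11b, a factor of the T lineage, fell by a log2 change of -2.19. Runx3, which acts with the T-box factors in CD8 T and NK cells, went from -1.33 ± 0.22 to -2.66 ± 0.08 (SD, n = 3 pools each), 2.52-fold lower (limma adjusted p = 0.00028), and Foxo1 fell by -1.24. Of 17 measured genes of the cytokines that prime cytotoxic cells and their receptors, 6 rose, 5 fell and 6 missed the threshold. Spike-in scaling gave 4 higher and 7 lower. Il15, the cytokine that sustains NK and memory CD8 T cells, stood at -2.09 ± 0.11 without and -0.28 ± 0.08 with irradiation (SD, n = 3 pools in either group), a 3.51-fold rise (limma adjusted p = 7.24e-05). Il18 and its soluble antagonist Il18bp rose by 1.75 and 2.29.

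Markers of other cells that hold granule proteases were also summed, in multiples of the array's 75th percentile signal. Beside the marker counts given here, 28% of all genes were higher and 30.6% lower. All 12 macrophage markers rose, and their sum went from a range of 263 to 290 without to 928 to 970 with irradiation. Of 10 measured mast cell and basophil markers 4 rose, 2 fell and 4 did not pass. Their sum went from 8.56 to 13.7 up to 15.4 to 17.3 through Hdc, the enzyme that makes histamine, and without it, left out after the values were seen, overlapped at 6.84 to 9.78 and 7.15 to 8.78. The basophil proteases Mcpt8 and Prss34 were the 2 that fell, by log2 changes of -3.34 and -2.61, and Ms4a2, which defines mast cells and basophils, did not rise above background on a single array. Of 11 neutrophil markers 1 rose and 3 fell, and the sums of 464 to 1061 and 523 to 602 overlapped. Of 7 plasmacytoid dendritic cell markers 2 rose and 3 fell, and the sums of 232 to 251 and 219 to 244 overlapped. The sum of the T cell list went from 143 to 204 down to 64.4 to 71.7. The sum of the NK list went from 76.5 to 82.6 up to 111 to 122, but Tyrobp, an adaptor that myeloid cells also express, made up that rise, going from 33.8 to 37.9 up to 74.0 to 85.2. Without Tyrobp, left out after the values were seen, the NK sum lay between 38.7 and 47.7 without and between 36.5 and 38.4 with irradiation. Hcst, the brightest gene left in that sum and named after its value was seen, fell by a log2 change of -0.87. A sum without Hcst was not taken, so the lower sum does not speak for the other genes. The part of these cells in the granule gene changes was not tested. With the mean log2 level of the pancreas genes as a covariate, Gzmb had a log2 change of 2.21 (limma adjusted p = 0.0145), Gzmm of -1.92 (adjusted p = 0.00958) and the brighter Eomes probe of -0.96 (adjusted p = 0.0248), while the calls of Gzma, Gzmc and Tbx21 were lost (adjusted p = 0.252, 0.189 and 0.0723). So were those of the dimmer probes of Gzmk (-1.19, adjusted p = 0.0945), Nkg7 (-0.10, adjusted p = 0.697) and Eomes (-1.32, adjusted p = 0.0608). That covariate was -4.24, 2.58 and 0.19 on the unirradiated and 6.14, 6.54 and 6.07 on the irradiated arrays. It cannot be told apart from irradiation, so a lost call can reflect lost precision, a smaller change or both, which was not tested. Gzma had a change of 0.53, Gzmc of 0.48 and Tbx21 of -0.65, beside 0.57, 0.59 and -0.47 without the covariate. The dimmer Nkg7 probe went from -0.34 to -0.10. The fit called 3847 of 26642 genes higher and 2566 lower, beside 7466 and 8146 without the covariate. With it the death ligand and cytokine list had 3 higher and 3 lower. The granule maturation list had 6 and 1, and the list of priming cytokines and receptors 4 and 0.

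The 6 arrays shared 1 slide and 1 scan. The unirradiated arrays and irradiated replicate 1 lay in slide row 1, and irradiated replicates 2 and 3 in row 2. Within row 1, Gzmb had a log2 change of 2.15 (limma adjusted p = 0.00904) and Gzmm of -1.85 (adjusted p = 0.00899). The brighter Eomes probe stood at -0.69 and did not pass there (adjusted p = 0.0565), nor did Gzma, Gzmc or Tbx21, at 0.58, 0.63 and -0.39 (adjusted p = 0.114, 0.08 and 0.197). With slide row as a block over all 6 arrays, 2 members were higher and 2 lower by their brightest probes, beside 5575 and 6106 of 26642 genes. Row 2 held only irradiated arrays, so the log2 changes of the blocked fit equalled those within row 1. They too rest on irradiated replicate 1, and irradiated replicates 2 and 3 added only to the estimate of the spread. That fit kept the calls of Gzmb, Gzmm, Gzmc (adjusted p = 0.0341) and Eomes (adjusted p = 0.0222). It lost those of Gzma (0.0823), Tbx21 (0.1) and the dimmer probes of Gzmk (0.186) and Nkg7 (0.132), the values being adjusted p.

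**Figure D4:**
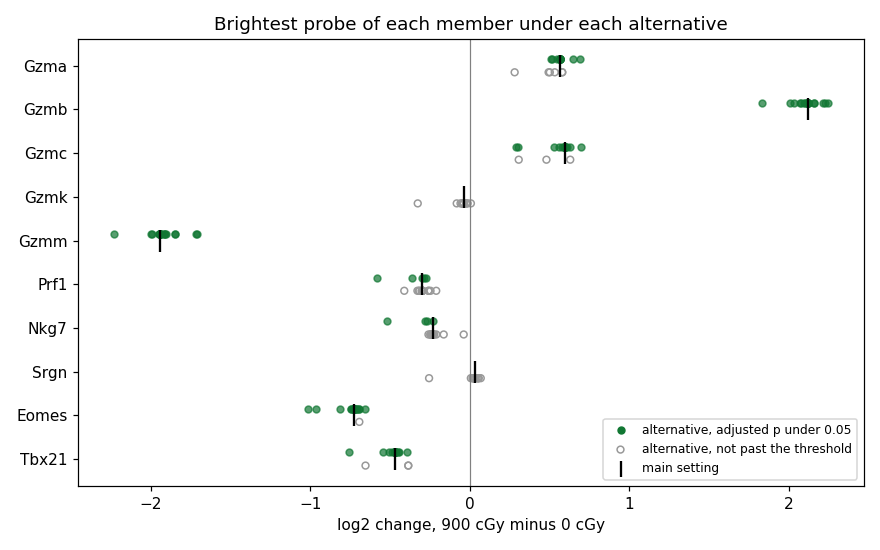
Log2 change, 900 cGy minus 0 cGy (horizontal axis), of the brightest probe of each of the 10 genes under the main setting (black bar) and 20 alternatives; filled green points passed an adjusted p of 0.05 and open points did not. Gzmb and Gzmm are filled in all 20, whereas Gzmk and Srgn are open in all 20.

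Genes whose 6 values ran closest to a member were found by the root mean square difference of centred log2 values over the 6 arrays, among 16226 named genes. This is a description over few arrays, in which the difference between the groups dominates. Nearest to Gzmb were Cxcl10, a chemokine induced by interferon, at 0.084, Kif1a, a kinesin, at 0.09 and Gbp2, an interferon-induced GTPase, at 0.091. Nearest to Gzmm were Eldr, Smc4, a condensin subunit, and Lgr5, at 0.055, 0.085 and 0.09. For Eomes they were Gpr141b, Lypd3 and Rnf167, and for Tbx21 Fbxl12, Sfi1 and Mamdc4, all within 0.036. Gzma lay nearest to Abca5, Gvin1 and Tnfrsf12a and Gzmc to Elac1, Secisbp2l and Trem1.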

How the data were processed

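Per the labels' protocols, total RNA of spleens was isolated with TRIzol and RNeasy and labelled with Cy3. Agilent Feature Extraction 10.5.1.1 produced, per the file headers, the deposited intensity of 62976 spots an array. It subtracted background, corrected spatial trends and put surrogates in place of weak signals, with arrays not yet normalized to each other. Dim probes can therefore have compressed changes. A table of log2 values by the authors matched these scanner values after scaling by the 75th percentile and subtraction of every probe's median (Pearson r of at least 0.999957 over probes). Column medians in it were 0.047, -0.0059 and -0.047 (0 cGy, replicates 1 to 3) and -0.025, 0.018 and -0.0082 (900 cGy). It served as an alternative.

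Here signals were divided by the array's 75th percentile over 59305 non-control spots (1114 to 1403) and put on the log2 scale. Between 91 and 146 spots per array marked as outliers were left out, and spots of a probe were averaged. Probes were named by accession (27235), symbol (3581) or synonym (565) in a RefSeq table of GRCm38.p6, and 24300 kept the file's name; 12 of the 13 member probes had a RefSeq accession. A probe was tested if 1 group or both had it well above background on every array, which left 39683, of which 57.5% passed. limma 3.58.1 in R 4.3.3 was used (lmFit and eBayes, two-sided), with Benjamini-Hochberg adjustment over all probes and a threshold of 0.05, after a check on simulated data. Probe coordinates are those of the files, on mm9. Spike-in scaling used the 8 of 10 spike-in probes well above background on all arrays. Of 14 granzyme inhibitors and targets listed, 1 had no probe. The members and lists were chosen with earlier results of these data known. Named genes were all members, the 3 called genes of each list with the largest change, and for each called member the 3 genes nearest in profile; exceptions are marked in the text. The alternatives were other background corrections, scalings, filters and tests, the deposited values, 1 probe per gene, replicate and slide row blocks, row 1 alone, the pancreas covariate, and leaving out each array.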

Additional observations from a re-analysis of the deposited data

How the results depend on the processing

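With 75th percentile scaling 3 of the 10 genes were higher and 3 lower by their brightest probe, beside 7466 and 8146 of all 26642 genes. With spike-in scaling 1 was higher and 5 were lower, beside 4751 and 10749 of all genes. That scaling moved the median of all genes from -0.06 to -0.34. The share of higher genes among those called went from 47.8% to 30.7%. With normexp and quantile normalization 5 were lower, beside 8366 of all genes. With the trend and robust options of eBayes 5 were lower too, beside 8457. In slide row 1 alone, which leaves a single irradiated array assumed to vary like the others, Gzmb stood at 2.15 and Gzmm at -1.85. With the pancreas covariate 1 was higher and 2 were lower, beside 3847 and 2566 of all genes. Leaving out 1 array at a time gave 2 to 3 higher and 3 to 4 lower, beside 6387 to 7669 and 6684 to 8746 of all genes. Gzmb and Gzmm passed in the same direction under all 20 alternatives run, and Eomes under 19. The values that changed sign were those of Srgn with spike-in scaling (-0.26) and of the brighter Gzmk probe with the pancreas covariate (0.0065), and neither passed. Spike-in scaling moves the log2 changes of all probes by the same amount, so Srgn moved as every gene did. The cause of the Gzmk sign was not tested. The difference between the Eomes probes, compared over the alternatives after the data were seen, turned from -0.44 to 0.12 with normexp, with or without quantile normalization. The replicate numbers of the titles were not shown to pair arrays, as the deviations of same-numbered arrays correlated at 0.07, 0.11 and -0.01; with the replicate block 3 members were higher and 3 lower. Normexp, with its added 50, moved the log2 changes of the dim probes of Gzmc, Gzmk and Eomes. They went from 0.59 to 0.30, from -0.79 to -0.41 and from -1.16 to -0.58. Before scaling, the Gzmc intensity ran from 54.1 to 90.0, so the added 50 alone shrinks such changes. Its part and that of the background correction were not told apart.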
